A study of Mus musculus with 96 samples.

Results

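The genes of the collagen chains, named in mouse as Col followed by the collagen type and the chain number, were followed in sciatic nerve (SCN in the labels) and gastrocnemius muscle (GASTROC). They were every symbol of that form in the deposited tables, kept in a tissue where the deposited log2 value reached log2 of 10 in at least 6 libraries. Of 44 such symbols, 42 were kept in at least 1 tissue, which was 39 of 43 in nerve and 40 of 43 in muscle, and 37 were kept in both. Col6a4 and Col9a3 were kept in nerve only, and Col9a1, Col19a1 and Col22a1 in muscle only. In nerve, Col9a1, Col10a1, Col22a1 and Col25a1 each had 0 of 47 libraries at the limit. In muscle, Col6a4 and Col9a3 had 0 of 49 libraries at the limit and Col25a1 had 1. Of the members kept, those nearest the limit were Col2a1 in muscle, with 15 of 49 libraries at or above it and values between 2.84 and 4.34, Col9a2 in muscle, with 36 of 49 libraries and values between 3.08 and 3.76, and Col6a4 in nerve, with 36 of 47 libraries and values between 3.16 and 3.92.

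Messenger RNA was sequenced from male C57BL/6J mice that were housed singly, began their diets at 12 weeks of age and were sampled at 26 weeks. The KD group ate a ketogenic diet based on cocoa butter, with 90% of energy from fat, throughout. The next groups began with a lard-based high-fat diet holding 60% of energy as fat: DR switched at 18 weeks to the standard diet, KDI switched then to the ketogenic diet, EX stayed on the high-fat diet and received a running wheel at 18 weeks, and KDI_EX received both the ketogenic diet and the wheel. The HFD group ate the high-fat diet throughout, and the SD group (written here as the standard diet, since SD also stands for standard deviation) ate a diet with 10% of energy from fat throughout. Nerve had 6 HFD and 6 standard-diet libraries and 7 in each other group, 47 in all. Muscle had 6 KDI_EX, 8 standard-diet and 7 of each other group, 49 in all. The labels tie no library to a mouse and do not pair the tissues, so that p-values here measure the spread between libraries. Replicate numbers were assigned here in the order of the libraries within each tissue and group. The same number in both tissues need not mark the same mouse.

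Collagens are proteins of 3 chains wound into a triple helix. Types I, III and V form the fibrils of endoneurium, epineurium and muscle connective tissue; type IV forms the sheet of basement membranes around Schwann cells, muscle fibres and capillaries; type VI forms beaded filaments next to those membranes and is defective in collagen VI muscular dystrophies. Chains of a type are made by separate genes, so that Col1a1 and Col1a2, Col4a1 and Col4a2, or Col6a1, Col6a2 and Col6a3 supply 1 molecule between them.

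The sequences shown are the starts of the genes on which the values below turn, from the RefSeq promoter table on build GRCm38.p6. Col4a1 and Col4a2, on chromosome 8, are read away from each other and their annotated starts overlap by 22 bases at chr8:11312805-11312826 (plus strand). Col6a5 and Col6a6 lie beside each other on chromosome 9, both on the minus strand, and changed rank most between the tissues. Shown for each are bases before the annotated first exon, at chr9:105960644-105960893 for Col6a5 and chr9:105828161-105828335 for Col6a6, read 5′ to 3′ on the minus strand, with capitals marking the GC box letters GGGCGG or, for the opposite strand, CCGCCC.
Col4a1 and Col4a2 shared start: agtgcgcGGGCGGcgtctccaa
Col6a5: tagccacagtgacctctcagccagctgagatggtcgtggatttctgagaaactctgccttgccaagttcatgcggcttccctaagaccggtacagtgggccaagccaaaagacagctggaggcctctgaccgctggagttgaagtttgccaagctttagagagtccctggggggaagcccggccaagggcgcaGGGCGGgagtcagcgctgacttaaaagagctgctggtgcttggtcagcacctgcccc
Col6a6: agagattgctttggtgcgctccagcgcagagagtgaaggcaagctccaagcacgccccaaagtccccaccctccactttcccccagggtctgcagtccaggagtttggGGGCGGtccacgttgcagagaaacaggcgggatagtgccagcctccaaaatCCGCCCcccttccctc
All of these hold the GC box letters. Over windows of 300 bases around the annotated starts, of which 250 lay before the start, 33 of the 42 genes had an entry, with 36 windows among them. GGGCGG on either strand was in 22 of 36 windows (61.1%), against 35.7% of all 32851 windows. CCAAT on either strand was in 12 (33.3%), against 37.4% of all windows, and TATAAA on either strand in 4 (11.1%), against 13.6%. The other type IV genes were also arranged head to head: 71 bases separated the starts of Col4a4 and Col4a3 on chromosome 1, and 1308 bases those of Col4a6 and Col4a5 on chromosome X.

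Per length of merged exons (the deposited log2 value minus log2 of the length in kilobases), nerve gave its highest collagen levels to the fibrillar genes Col1a2, Col3a1 and Col1a1, with medians of 11.98, 11.96 and 11.91 over 47 libraries. Col4a1 (11.81) and Col4a2 (11.39) of the basement membrane came next, followed by Col15a1 at 10.83, which encodes a basement membrane proteoglycan collagen, and Col6a1 at 10.66. Muscle had Col3a1 highest at 10.38, then Col4a1 at 9.98, Col6a1 at 9.82, Col1a2 at 9.69, Col4a2 at 9.56 and Col1a1 at 9.52 over 49 libraries. The lowest medians per length were 0.39 for Col6a4 in nerve and -0.01 for Col2a1, the cartilage fibril gene, in muscle. The tissues were processed separately by the authors, so that ranks within a tissue, not values, can be set side by side. With the length of the longest coding transcript in place of merged exons, a choice made after seeing the data, 10 of the 10 highest genes in nerve and 9 of 10 in muscle stayed among the 10 highest.

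**Figure D1:**
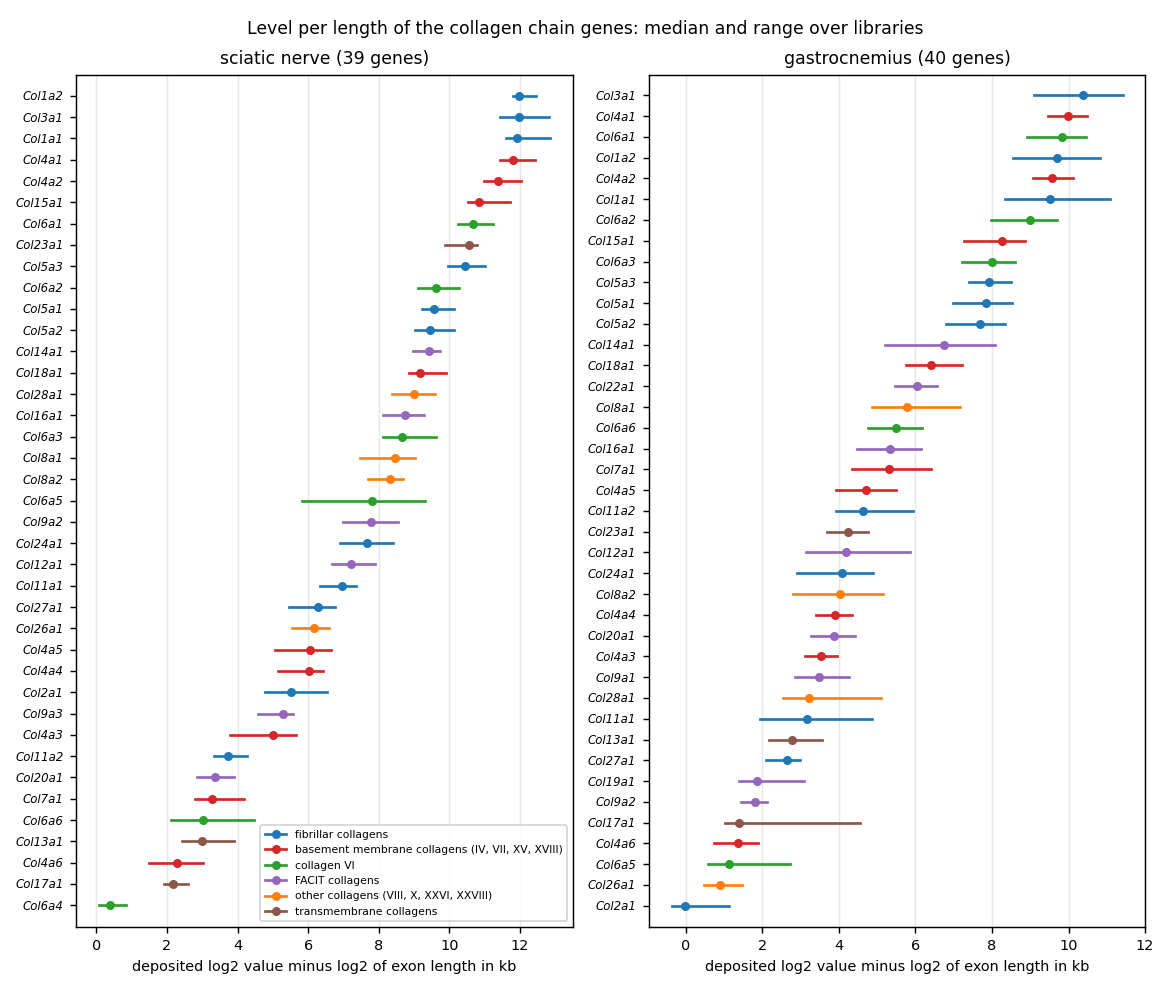
Level per kilobase of merged exons (log2 scale, x axis) of each kept collagen gene (y axis) in nerve and muscle libraries, with points for the median over libraries and lines for the lowest and highest library. Fibrillar and basement membrane genes lead in nerve, and in muscle Col6a1 of collagen VI stands among the leading ones at rank 3. Col6a5 and Col6a6 take opposite places.

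The same gene could hold a very different place in the tissues. Col6a5 ranked 20 of 39 in nerve, at a median of 7.80 per length (5.83 to 9.32), and 38 of 40 in muscle, at 1.15 (0.59 to 2.74). Its neighbour Col6a6 ranked 35 in nerve, at 3.02 (2.10 to 4.46), and 17 in muscle, at 5.48 (4.76 to 6.16). Both encode chains that can take the place of the α3 chain in collagen VI. Col7a1, the anchoring fibril gene, ranked 34 in nerve and 19 in muscle, while Col23a1, a transmembrane collagen, ranked 8 and 22. Col28a1, known from peripheral nerve, ranked 15 and 30.

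Partner chains of 1 molecule were set against each other within a library. Col4a1 exceeded Col4a2 per length in 47 of 47 nerve libraries (median log2 ratio 0.41) and in 49 of 49 muscle libraries (0.37). Col6a3 lay below Col6a1 in every library of both tissues, with median log2 ratios of -1.98 in nerve and -1.80 in muscle. For Col1a1 over Col1a2 the ratio depended on the length used: -0.06 in nerve and -0.11 in muscle with merged exons, against -1.13 and -1.18 with the longest coding transcript. Col5a1 over Col5a2 changed sign by the same choice: -0.43 in nerve and -0.36 in muscle with the coding transcript, against 0.09 and 0.16 with merged exons. With the coding transcript, Col4a1 over Col4a2 was 0.55 in nerve and 0.51 in muscle, and Col6a3 over Col6a1 was -1.84 and -1.66.

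Partners also varied together from library to library after the group means were removed. Col4a1 and Col4a2 gave Pearson's r = 0.983 (Spearman's rho 0.984) over 47 nerve libraries and r = 0.914 (rho 0.904) over 49 muscle libraries. Col6a1 and Col6a2 gave r = 0.974 (rho 0.962) in nerve and 0.988 (rho 0.987) in muscle. For Col1a1 and Col1a2, r was 0.962 (rho 0.957) in nerve and 0.976 (rho 0.963) in muscle. Col3a1 and Col5a2, neighbours on chromosome 1 that supply different fibrillar collagens, gave 0.920 (rho 0.887) in nerve and 0.966 (rho 0.961) in muscle. Col5a1 with Col5a2 gave 0.883 (rho 0.843) and 0.927 (rho 0.911), and Col6a1 with Col6a3 gave 0.833 (rho 0.835) and 0.901 (rho 0.859). For r and rho, each of these 12 relations had a permutation p of 1e-05, the smallest that 100000 permutations can give, and an adjusted p of 1e-05 over the 12. Without the 2 libraries farthest from the median on the x axis, r stayed between 0.817 and 0.982 in nerve and between 0.878 and 0.985 in muscle. Beside these, the median r over all 741 pairs of kept collagen genes was 0.163 in nerve (-0.731 to 0.983), and over 780 pairs in muscle it was 0.315 (-0.599 to 0.988). The libraries share tissue and processing, and the part of cell content in these relations was not tested.

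**Figure D2:**
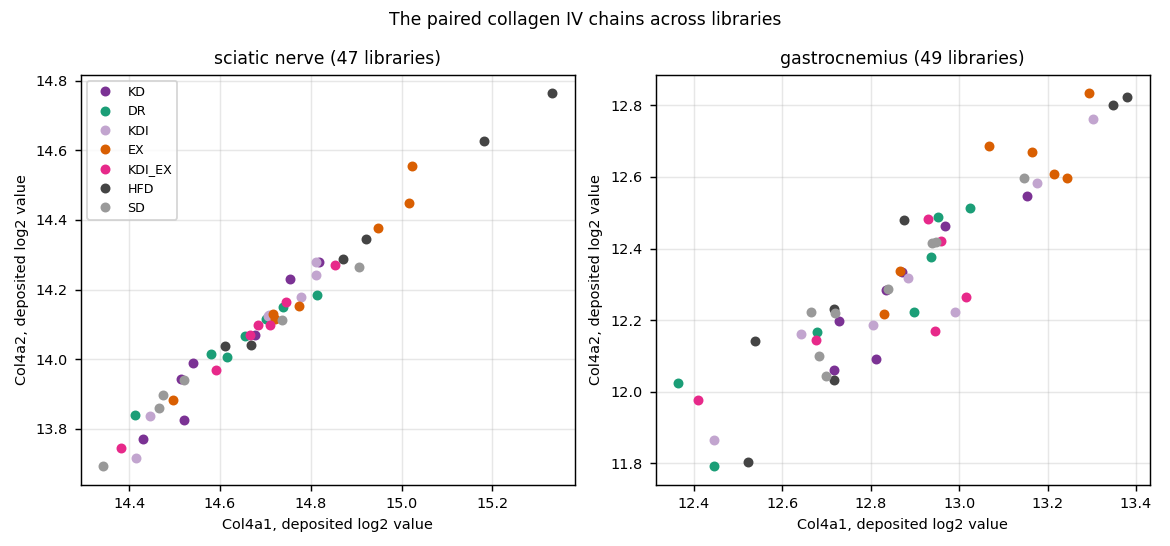
Deposited log2 values of Col4a2 (y axis) against Col4a1 (x axis), 1 point per library coloured by group, for nerve and muscle. The points lie along a line in both tissues, and the HFD nerve libraries reach the upper end, at up to 15.33 for Col4a1.

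No collagen gene passed an adjusted p of 0.05 in any of the 9 comparisons per tissue or in the F test for any difference among the 7 groups, with limma and Benjamini-Hochberg adjustment over the 17226 genes tested in nerve and the 15748 tested in muscle. For the F test the background was low too: it called 0.151% of all genes in nerve and 0.718% in muscle. At an unadjusted p under 0.05 that test held 14 of 39 collagen genes in nerve, against 10.6% of all genes, and 12 of 40 in muscle, against 8.38%. The smallest adjusted p of the F test was 0.122, for Col15a1 in nerve, and 0.19, for Col6a3 in muscle. What follows therefore gives sizes and spreads of differences that did not pass over all genes. All comparisons except KD against standard diet and KDI_EX against KDI use the HFD libraries. A high or low HFD group therefore enters each of the others, including HFD against standard diet and the wheel by diet. Fewer cells of a type and less RNA per cell cannot be told apart in such bulk tissue.

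**Figure D3:**
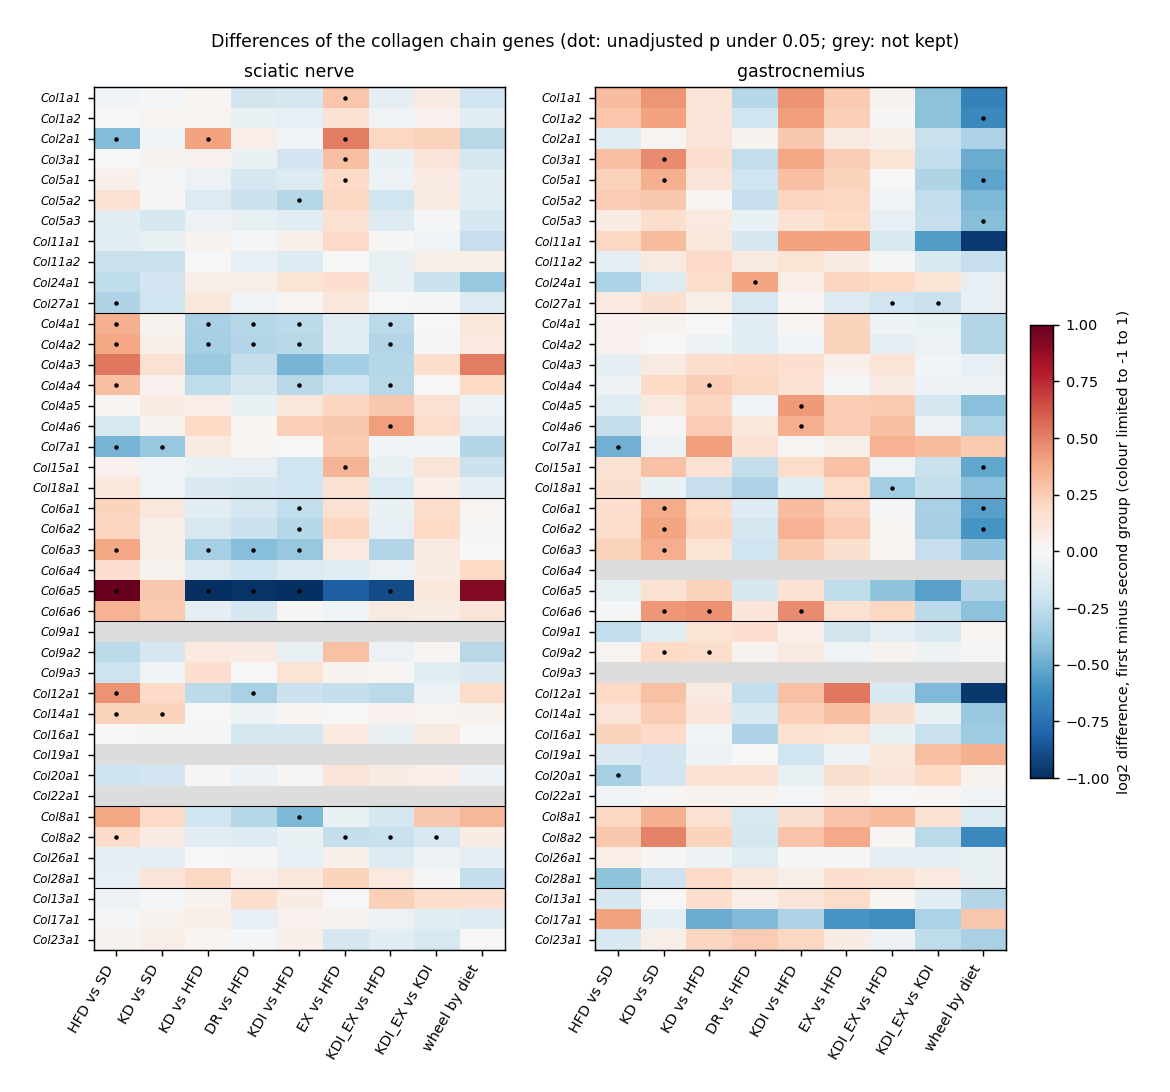
Log2 differences of each collagen gene (rows) in each comparison (columns), nerve and muscle side by side, coloured from -1 to 1, with a dot for an unadjusted p under 0.05 and grey for genes that were not kept. Col6a5 in HFD against standard-diet nerve, at 1.304, exceeds the colour scale.

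HFD nerve against standard-diet nerve held the largest single difference of the 9 comparisons in either tissue, that of Col6a5. The higher genes were led by non-fibrillar ones: Col6a5 by 1.304 ± 0.43 (log2, SE), Col12a1 by 0.45 ± 0.15, Col4a2 by 0.39 ± 0.12 and Col4a1 by 0.36 ± 0.10. The main fibrillar genes Col1a1, Col1a2 and Col3a1 differed by -0.029, -0.004 and -0.005. Of all 39 genes, 21 had a positive difference and 18 a negative one, with a median of 0.02, against -0.006 over all genes. None was called, beside 0.0% of all genes. At an unadjusted p under 0.05 there were 11 members, 8 higher and 3 lower, against a background of 18.2%.

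By type, 6 of 6 collagen VI genes were higher in HFD nerve, with a median log2 difference of 0.29. Of the basement membrane genes 7 of 9 were higher, with a median of 0.10. Of the fibrillar genes 2 of 11 were higher, with a median of -0.10.

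Col6a5, at chromosome 9, bases 105856078 to 105960643, minus strand (GRCm38), had log2 values with lowest, median and highest of 10.78, 11.95 and 12.55 in HFD nerves, against 9.83, 10.55 and 11.39 in standard-diet nerves. The ranges overlapped, and 6 of 6 HFD nerves lay above the standard-diet mean (adjusted p = 0.167). The groups that left the HFD or received a wheel had lower Col6a5 medians, 11.07 in DR, 11.04 in KDI, 10.58 in EX and 11.26 in KDI_EX, and KD nerves had a median of 10.65. Its differences from HFD were -1.03 ± 0.42 in KD (adjusted p = 0.71), -0.98 in DR (0.663), -1.0 in KDI (1.0), -0.81 in EX (0.702) and -0.90 in KDI_EX (0.835; -0.58 without KDI_EX replicate 5). Spread within groups was wide, with an SD of 0.69 in HFD nerves (n = 6) and 1.002 in KDI_EX nerves (n = 7).

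Col4a1 (chromosome 8, bases 11198423 to 11312826, minus strand) had 14.61, 14.90 and 15.33 in HFD nerves as lowest, median and highest, against 14.34, 14.50 and 14.91 in standard-diet nerves. Every HFD nerve lay above the standard-diet mean, and the ranges overlapped (adjusted p = 0.146, the smallest of any collagen gene in that comparison). KD nerves had 14.43, 14.54 and 14.82, and so lay with the standard diet. Against HFD, Col4a1 differed by -0.32 ± 0.10 in KD (adjusted p = 0.38), -0.29 in DR, -0.26 in KDI, -0.12 in EX and -0.27 in KDI_EX. Col4a2 followed with -0.34, -0.30, -0.28, -0.11 and -0.29 in the same groups. EX nerves thus had the mean nearest to that of HFD nerves for both partners. The other type IV pairs encode the chains of kidney and other specialised basement membranes. Of these, Col4a3 differed by 0.52 ± 0.28 and Col4a4 by 0.30 in HFD nerve against standard-diet nerve (adjusted p = 0.309 and 0.257). Col4a6 instead had its lowest mean of the 7 groups in HFD nerves, at 5.03.

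Col12a1 encodes a collagen that decorates fibrils and is abundant in tendon. On chromosome 9, bases 79598991 to 79718831 of the minus strand, it had 10.71, 11.48 and 11.83 in HFD nerves, against 10.60, 10.91 and 11.40 in standard-diet nerves (adjusted p = 0.171, with 5 of 6 HFD nerves above the standard-diet mean). Col6a3, the usual α3 chain of collagen VI, was higher by 0.38 ± 0.17 (adjusted p = 0.236). On the lower side, Col7a1 had 6.42, 6.58 and 6.90 in HFD nerves, against 6.71, 7.13 and 7.39 in standard-diet nerves, a difference of -0.46 ± 0.17 (adjusted p = 0.197). All 6 HFD nerves lay below the standard-diet mean of Col7a1. Col2a1 differed by -0.43 ± 0.20 (adjusted p = 0.253).

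Marker genes of several other cell types moved with these values. The perineurial score (8 of 8 markers measured, mean deviation in log2 from each marker's mean) was 0.19 ± 0.21 in HFD nerves, from -0.14 to 0.45, and -0.21 ± 0.35 in standard-diet nerves, from -0.68 to 0.20. The tendon score (7 of 9 markers measured) was 0.17 ± 0.16 in HFD nerves, from -0.07 to 0.35, and -0.11 ± 0.20 in standard-diet nerves, from -0.31 to 0.16. Of the tendon list, Chad lay below the limit at 2.18 to 2.63. Near it were Scx at 3.34 to 4.01, Cilp2 at 3.61 to 4.13 and Tnmd, a defining tendon gene, at 3.66 to 5.03. Well above it were Mkx at 6.64 to 7.51, Comp at 7.13 to 10.44, Fmod at 9.18 to 11.86 and Thbs4 at 13.02 to 14.11. In nerve the score thus stands for the listed genes and does not show that tendon cells were present. Across the 47 nerves, with group means removed, the tendon score and Col6a5 gave r = 0.909 (rho 0.882, permutation p = 1e-05 for r and for rho, adjusted p = 3.6e-05 over 36 relations, r = 0.894 without the 2 farthest libraries). For Col4a1 and Col12a1 the same r was 0.757 and 0.755. The relation was not particular to the tendon list. For Col6a5, Col4a1 and Col12a1, the endothelial score gave r of 0.633, 0.645 and 0.529, and the fibroblast score 0.610, 0.555 and 0.438. The endothelial score was 0.07 ± 0.22 in HFD nerves and -0.11 ± 0.22 in standard-diet nerves. These relations were chosen after seeing the values, and their part in the difference between the diets was not tested. With muscle fibre and adipocyte scores as covariates, Col4a1 and Col4a2 were called (0.36 and 0.39, adjusted p = 0.0429 each), beside 1.61% of all genes.

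Single libraries weighed on the comparison in both directions. Leaving out HFD replicate 4 moved Col4a1 and Col4a2 most, to 0.28 and 0.31. Against HFD without that replicate, Col4a1 was -0.24 in KD, and Col6a3 was -0.22 in KD, -0.315 in DR and -0.27 in KDI. Without HFD replicate 5, Col6a5 (1.40), Col12a1 (0.58), Col4a2 (0.45), Col4a1 (0.42) and Col14a1 (0.32) were called, beside 9.57% of all genes. With libraries weighted by their quality, 14 collagen genes were called, 11 higher and 3 lower, beside 22% of all genes; that replicate then had a weight of 0.293.

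**Figure D4:**
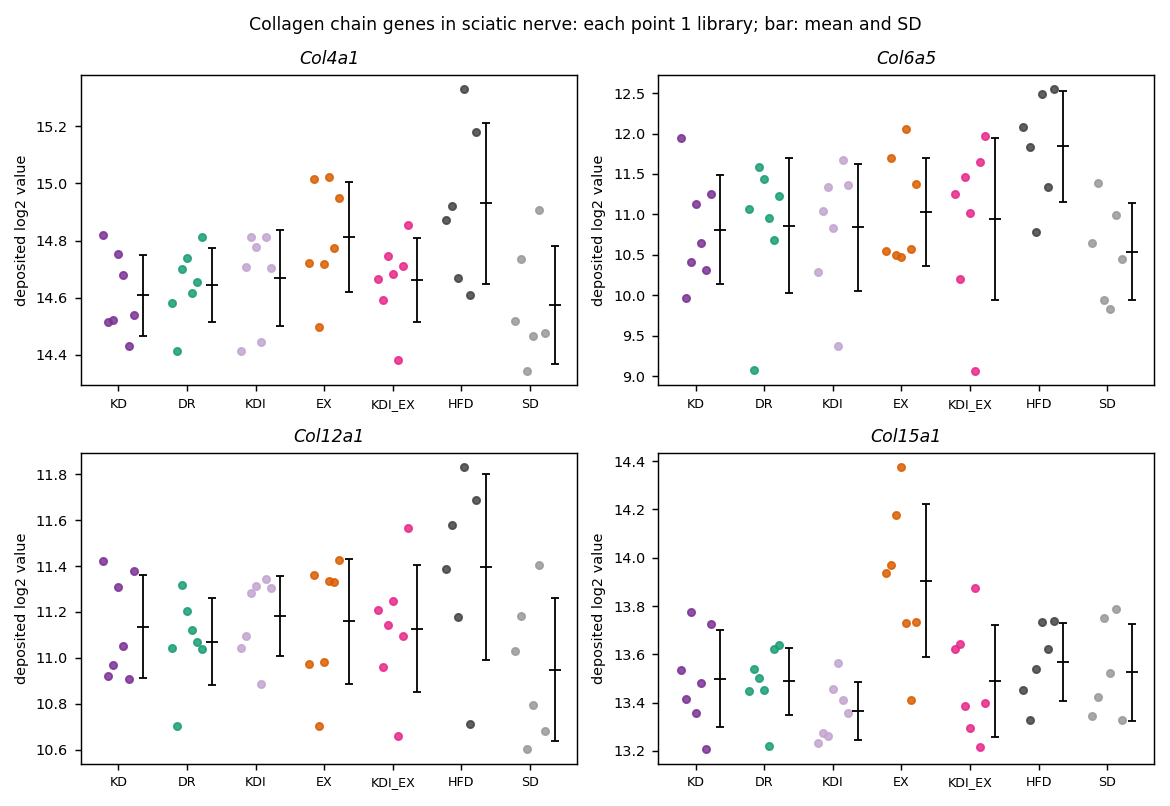
Deposited log2 values of Col4a1, Col6a5, Col12a1 and Col15a1 in nerve by group, 1 point per library with the group mean and SD. HFD nerves have the highest means of Col4a1, Col6a5 and Col12a1 and overlap the others, and EX nerves reach 14.38 for Col15a1.

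A ketogenic diet from the start gave no called collagen gene in nerve against either diet. In KD against standard-diet nerve, beside 0.00581% of all genes called, 22 of 39 genes were higher, with a median of 0.03, and 2 had an unadjusted p under 0.05 (background 5.28%). The differences largest in size were 0.27 for Col6a5, 0.26 for Col6a6, -0.38 for Col7a1 and -0.23 for Col11a2. Without KD replicate 1 the value was 0.08 for Col6a5 and 0.10 for Col6a6. In KD against HFD nerve, beside 0.0348% called, 18 of 39 were higher and the median was -0.003, with 5 members at an unadjusted p under 0.05, 1 higher and 4 lower (background 5.63%). The lower ones included Col4a1, Col4a2 and Col6a5, and all 6 collagen VI genes had a negative difference, with a median of -0.15. On the higher side Col2a1 led with 0.40 and Col28a1 with 0.21 (0.11 without HFD replicate 5), and Col4a3 differed by -0.37.

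After a switch of diet at 18 weeks, most collagen genes had lower values than in HFD nerve. DR nerves were higher than HFD nerves for 9 of 39 genes, with a median of -0.08, and 5 members, all lower, had an unadjusted p under 0.05 (background 7.38%, of lower genes 3.4%, called genes 0.0%). KDI nerves were higher for 14 of 39, with a median of -0.11, and 9 members, all lower, had an unadjusted p under 0.05 (background 4.27%, of lower genes 2.69%, called 0.0232%). Beside Col6a5, the differences largest in size were -0.46 for Col4a3 and -0.45 ± 0.20 for Col8a1, a short-chain collagen of vessel walls, in KDI, and -0.43 ± 0.16 for Col6a3 in DR. In KDI, Col5a2 differed by -0.28, Col6a2 by -0.29 and Col6a1 by -0.24. The highest positive values were small, at 0.17 for Col13a1 and 0.08 for Col9a2 in DR (0.19 without HFD replicate 5), and at 0.24 for Col4a6 and 0.14 for Col24a1 in KDI. Col16a1 had 11.17, 11.43 and 11.47 in DR nerves, against 11.47, 11.56 and 11.73 in HFD nerves, so that the ranges only met (difference -0.18 ± 0.09, adjusted p = 0.671). By type, the medians for fibrillar, basement membrane and collagen VI genes were -0.07, -0.17 and -0.21 in DR, and -0.11, -0.20 and -0.26 in KDI.

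A running wheel on the high-fat diet went with higher fibrillar values in nerve. In EX against HFD nerve, 11 of 11 fibrillar genes were higher, with a median of 0.19, and of all 39 genes 27 were higher, with a median of 0.11, against 0.003 over all genes. None was called, beside 0.0% of all genes, and 6 had an unadjusted p under 0.05, 5 higher and 1 lower (background 7.17%). Col15a1, at chromosome 4, bases 47208161 to 47313167, plus strand, had 13.41, 13.94 and 14.38 in EX nerves, against 13.33, 13.58 and 13.74 in HFD nerves. Its difference was 0.34 ± 0.11 (adjusted p = 0.589), 6 of 7 EX nerves lay above the HFD mean, and the ranges overlapped. The Col15a1 medians of the other groups lay between 13.36 in KDI and 13.58 in HFD.

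Among the fibrillar genes, Col2a1 was higher in EX than in HFD nerve by 0.51 ± 0.19 (adjusted p = 0.666), Col3a1 by 0.30 ± 0.15 (0.695), Col1a1 by 0.28 ± 0.13 (0.681; 0.18 without EX replicate 4) and Col5a1 by 0.19 ± 0.09 (0.681). Col1a1 had 14.46, 15.00 and 15.57 in EX nerves, against 14.60, 14.67 and 14.85 in HFD nerves. The EX range for Col1a1 reached both above and below the HFD range. Col8a2, partner of Col8a1, differed by -0.24 ± 0.08, at 10.09, 10.40 and 10.49 in EX nerves, against 10.48, 10.56 and 10.84 in HFD nerves (adjusted p = 0.597, 7 of 7 EX nerves below the HFD mean). Beside Col6a5, the lowest was Col4a3 at -0.34.

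Other cell markers also moved with the wheel. The fibroblast score was 0.18 ± 0.17 in EX nerves (-0.002 to 0.49) and -0.03 ± 0.16 in HFD nerves (-0.19 to 0.13). The adipocyte score averaged 0.30 in EX nerves and -0.15 in HFD nerves. The part of the fibroblast score was not tested. The adipocyte score entered only the fit with it and the muscle fibre score as covariates, which called no collagen gene in EX against HFD, like the main fit. Over the 47 nerves Col15a1 and the fibroblast score gave r = -0.031 (rho 0.068, permutation p = 0.855 and 0.680). With the tendon score Col15a1 gave r = -0.306 (rho -0.290). With the endothelial score it gave r = -0.489 (rho -0.424, -0.388 without the 2 farthest libraries, adjusted permutation p = 0.00258 for r). The endothelial score averaged -0.08 in EX nerves and 0.07 in HFD nerves, and its part was not tested. EX replicate 5 and KDI_EX replicate 7 lay farthest from the other nerve libraries in a principal component analysis and had the highest muscle fibre scores. Without both, the Col15a1 difference was 0.37. Under library quality weights 6 collagen genes were called in EX against HFD, beside 4.98% of all genes, with Col15a1 at 0.44 (adjusted p = 0.016).

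Ketogenic diet and wheel together gave 10 of 39 genes higher than HFD in nerve, with a median of -0.07; 6 had an unadjusted p under 0.05, 1 higher and 5 lower (background 5.72%), and none was called, beside 0.0697% of all genes. Col4a6, a basement membrane chain of smooth muscle and skin, was higher by 0.42 ± 0.19 (adjusted p = 0.805) and its head-to-head partner Col4a5 by 0.27, while Col8a2 differed by -0.22 (0.599) and Col4a4 by -0.28. Single libraries moved 3 of these: Col4a5 was 0.15 without HFD replicate 1, Col8a2 was -0.14 without KDI_EX replicate 6 and Col4a4 was -0.18 without KDI_EX replicate 5. Against KDI without a wheel, 25 of 39 were higher in KDI_EX nerve, with a median of 0.06; 1 member, lower, had an unadjusted p under 0.05 (background 4.65%, of lower genes 2.12%), and 0.0% of all genes were called. The values largest in size were 0.27 for Col8a1, 0.23 for Col2a1, -0.21 for Col24a1 and -0.16 for Col23a1. Without KDI_EX replicate 5 Col2a1 was 0.11 and Col24a1 was -0.34, and without KDI_EX replicate 6 Col23a1 was -0.07. For the difference between the wheel's effects under the ketogenic and high-fat diets, 0 of 39 had an unadjusted p under 0.05 (background 2.1%) and 0.0% of all genes were called. Its values ran up to 0.92 ± 0.58 for Col6a5 and 0.51 for Col4a3, and down to -0.38 for Col24a1 and -0.29 for Col7a1.

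In muscle, a ketogenic diet from the start went with higher collagen VI and fibrillar values than the standard diet. In KD against standard-diet muscle 5 of 5 collagen VI genes were higher, with a median of 0.37, and 10 of 11 fibrillar genes, with a median of 0.27. Basement membrane genes stayed nearer zero, with 6 of 9 higher and a median of 0.04. Of all 40 genes 31 were higher, with a median of 0.16, against -0.007 over all genes. None was called, beside 0.197% of all genes, and 7 had an unadjusted p under 0.05, all higher (background 10.2%, of higher genes 5.07%). HFD muscle also differed from standard-diet muscle in this direction, with 8 of 11 fibrillar genes higher (median 0.20) and 3 of 5 collagen VI genes (0.17). KD against HFD muscle gave medians of 0.13 for the fibrillar genes and 0.22 for collagen VI.

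Col6a6 (chromosome 9, bases 105687809 to 105828160, minus strand) had 8.60, 8.85 and 9.27 in KD muscles, against 8.21, 8.44 and 8.75 in standard-diet muscles. All 7 KD muscles lay above the standard-diet mean and the ranges overlapped, with a difference of 0.43 ± 0.14 (adjusted p = 0.271). HFD muscles had 7.96, 8.43 and 8.94, so that KD exceeded HFD by 0.46 ± 0.15 (0.271), again with 7 of 7 above the HFD mean. KDI muscles had 8.38, 9.005 and 9.36 and exceeded HFD by 0.47 ± 0.15 (adjusted p = 1.0, 6 of 7 above the HFD mean). The Col6a6 means were in order 8.94 in KDI, 8.92 in KD, 8.68 in KDI_EX, 8.62 in EX, 8.59 in DR, 8.49 on the standard diet and 8.47 in HFD, so that the groups on the ketogenic diet without a wheel came first. Neighbours in that order differed by less than the larger of their SDs.

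Col6a3 (chromosome 1, bases 90765923 to 90843971, minus strand) had 11.52, 11.73 and 12.03 in KD muscles, against 11.13, 11.42 and 11.79 in standard-diet muscles, a difference of 0.36 ± 0.13 (adjusted p = 0.358). All 7 KD muscles lay above the standard-diet mean. Its partners gave 0.40 ± 0.17 for Col6a2 (0.454) and 0.37 ± 0.16 for Col6a1 (0.453). Fibrillar Col3a1 differed by 0.47 ± 0.22 (0.47), Col8a2 by 0.49, Col1a1 by 0.44 ± 0.23 and Col5a1 by 0.36 ± 0.16 (0.461). Col4a1 and Col4a2 differed by 0.04 and -0.01, and Col18a1, the source of endostatin, by -0.07. The lowest values were -0.21 for Col28a1, which turned to 0.02 without standard-diet replicate 6, and -0.19 for Col20a1.

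The fibroblast score moved with these genes. It was 0.14 ± 0.31 in KD muscles, from -0.47 to 0.45, and -0.24 ± 0.24 in standard-diet muscles, from -0.57 to 0.09, with 10 of 10 markers measured. Over the 49 muscles, with group means removed, it gave r = 0.915 with Col6a1 (rho 0.883, permutation p = 1e-05 for both, r = 0.891 without the 2 farthest libraries), and r = 0.695 with Col6a6. Its part in the difference was not tested. Under library quality weights Col6a3 was called in KD against standard diet (0.40, adjusted p = 0.0383, beside 1.42% of all genes).

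**Figure D5:**
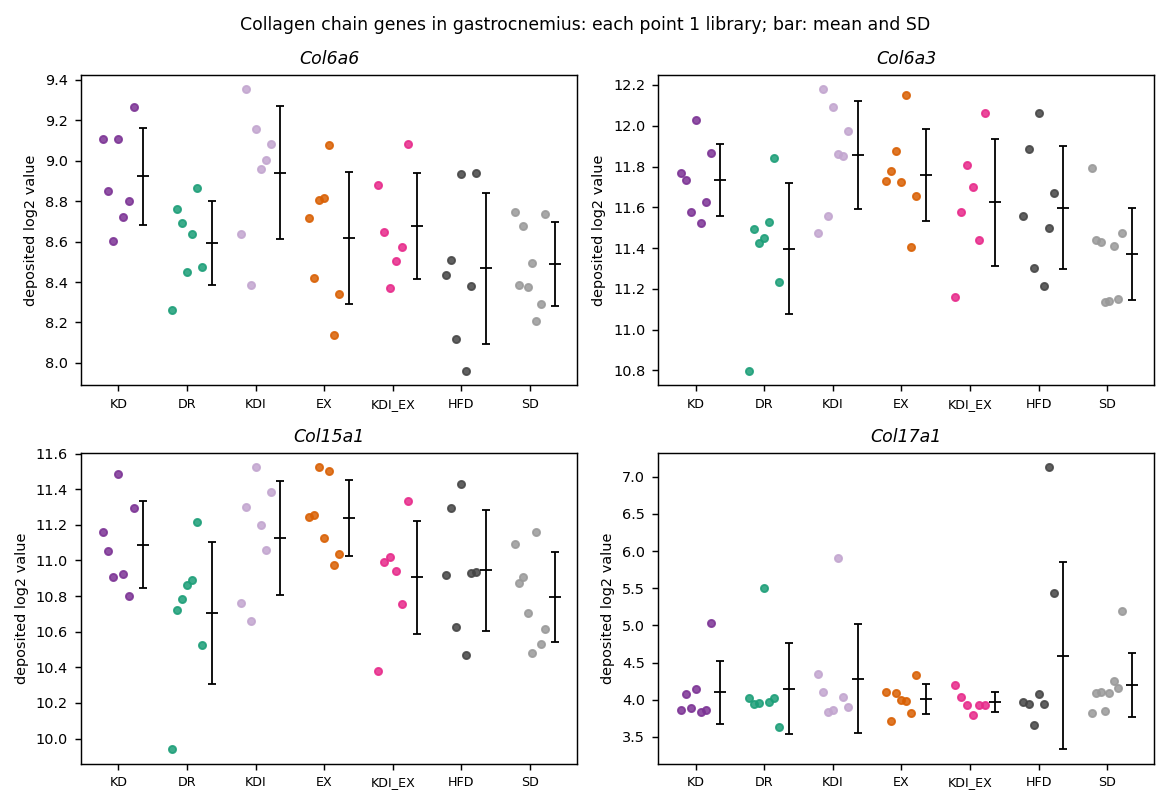
Deposited log2 values of Col6a6, Col6a3, Col15a1 and Col17a1 in muscle by group, 1 point per library with the group mean and SD. Col6a6 has its highest means in KD and KDI muscles, with overlap, and a single HFD library at 7.13 stands far above the others for Col17a1.

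HFD muscle against standard-diet muscle had 23 of 40 collagen genes higher, with a median of 0.05, and 2 members, both lower, at an unadjusted p under 0.05 (background 8.68%, of lower genes 5.29%, called 0.0191%). These were Col20a1, at 5.63, 6.13 and 6.56 in HFD muscles, against 6.11, 6.48 and 6.68 in standard-diet muscles (difference -0.33 ± 0.13, adjusted p = 0.453), and Col7a1 at -0.48 ± 0.23 (0.567). Col28a1 differed by -0.40 (-0.18 without standard-diet replicate 6) and Col1a1 by 0.31 (0.20 without HFD replicate 4). Col7a1 was thus negative in HFD against standard diet in both tissues. Col17a1, the hemidesmosome collagen, was higher by 0.40, a value that rested on HFD replicate 6 at 7.13: the HFD median was 3.97, against 4.10 on the standard diet, and without that library the difference was -0.025.

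Against HFD muscle, KD had 33 of 40 genes higher, with a median of 0.14; 3 members, all higher, had an unadjusted p under 0.05 (background 5.89%, of higher genes 2.59%, called 0.318%), which were Col6a6, Col4a4 at 0.24 ± 0.12 (adjusted p = 0.827) and Col9a2 at 0.17 (0.838). Col7a1 differed by 0.42, Col18a1 by -0.23 (-0.12 without HFD replicate 4) and Col17a1 by -0.49 (-0.07 without HFD replicate 6). KDI also had 33 of 40 higher, with a median of 0.16, 11 of 11 fibrillar and 5 of 5 collagen VI genes among them, and 3 members, all higher, at an unadjusted p under 0.05 (background 2.62%, of higher genes 1.59%, called 0.0318%). Beside Col6a6, these were the partners Col4a5 at 0.43 ± 0.16 and Col4a6 at 0.36 ± 0.16, while Col1a1 differed by 0.45, Col19a1 by -0.20 and Col17a1 by -0.31. Each of the last 3 turned on a library: Col1a1 was 0.26 without KDI replicate 7, Col19a1 was -0.001 without HFD replicate 5 and Col17a1 was 0.11 without HFD replicate 6. Under quality weights Col6a6 was called in KD (0.52, adjusted p = 0.0386, beside 0.781% of all genes) and in KDI (0.58, 0.0396, beside 0.114%). DR had 16 of 40 higher than HFD and a median of -0.12; 1 member, Col24a1, higher by 0.40 (adjusted p = 0.964), had an unadjusted p under 0.05 (background 5.04%, of higher genes 2.97%, called 0.0254%). Col23a1 differed by 0.26, Col18a1 by -0.31 (-0.21 without HFD replicate 4) and Col17a1 by -0.44 (-0.02 without HFD replicate 6) in DR.

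The wheel on the high-fat diet had 32 of 40 genes higher in EX than in HFD muscle, with a median of 0.18, against 0.008 over all genes, and 0 had an unadjusted p under 0.05 (background 2.02%, 0.0% called). Col15a1, higher with the wheel in nerve too, had 10.97, 11.24 and 11.52 in EX muscles, against 10.47, 10.93 and 11.43 in HFD muscles, with 7 of 7 above the HFD mean (0.29 ± 0.16, adjusted p = 0.996). Col4a1 and Col4a2 differed by 0.23 ± 0.13 each, and Col4a2 by 0.15 without HFD replicate 7. The smallest adjusted p in that comparison was 0.996 among the collagen genes and 0.768 over all genes. Col12a1 differed by 0.53 ± 0.37, at 7.72, 8.85 and 9.25 in EX muscles, against 7.36, 8.08 and 9.303 in HFD muscles. Col11a1 differed by 0.40, Col6a5 by -0.25 (-0.045 without HFD replicate 2) and Col17a1 by -0.59 (-0.16 without HFD replicate 6). The tendon score was 0.36 ± 0.55 in EX muscles and -0.04 ± 0.64 in HFD muscles. It moved with Col12a1 over the 49 muscles (r = 0.884, rho 0.893, permutation p = 1e-05 for both, r = 0.885 without the 2 farthest libraries). This score entered only a fit with adipocyte and tendon scores together as covariates, which called no muscle collagen gene, like the main fit. Over all alternatives, that fit among them, Col12a1 ran from 0.158 to 0.775 and Col11a1 from 0.032 to 0.668. The part of the tendon score alone was not tested.

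On the ketogenic diet most collagen genes were lower in muscle with the wheel than without it. KDI_EX was higher than KDI for 7 of 40 genes, with a median of -0.22; 1 member, Col27a1, lower by 0.22 ± 0.09 (adjusted p = 0.977), had an unadjusted p under 0.05 (background 4.72%, of lower genes 2.14%, called 0.0%). The values largest in size were -0.56 for Col11a1, -0.54 for Col6a5, 0.32 for Col7a1 and 0.30 for Col19a1. Without KDI_EX replicate 6 Col27a1 was -0.14 and Col7a1 was 0.54, and without KDI replicate 7 Col11a1 was -0.32. The test of the difference between the wheel's effects on the 2 diets, KDI_EX minus KDI against EX minus HFD, was negative for 35 of 40 genes, with a median of -0.31, against -0.001 over all genes. None was called, beside 0.0% of all genes, and 6 had an unadjusted p under 0.05, all negative (background 3.31%, of negative genes 1.47%). These were Col15a1 at -0.52 ± 0.23, Col6a1 at -0.54 ± 0.24, Col6a2 at -0.59 ± 0.26, Col5a1 at -0.52 ± 0.24, Col5a3 at -0.43 ± 0.20 and Col1a2 at -0.65 ± 0.31, each with an adjusted p of 1.0. Larger in size but with wider error were Col12a1 at -0.97 ± 0.53 and Col11a1 at -0.96 ± 0.51. Over all alternatives Col12a1 ran from -1.277 to -0.23 and Col11a1 from -1.273 to -0.308. Of the 6 genes, Col1a2 ran from -0.872 to -0.282 and Col6a2 from -0.788 to -0.418. The highest values of this test were Col19a1 at 0.35 (0.16 without HFD replicate 5) and Col17a1 at 0.27 (-0.15 without HFD replicate 6). By type the medians were -0.45 for the fibrillar genes (0 of 11 positive), -0.41 for collagen VI (0 of 5) and -0.30 for the basement membrane genes (1 of 9).

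For Col6a2 the group values behind this were 11.46, 11.93 and 12.72 in KDI_EX muscles, against 11.81, 12.32 and 12.65 in KDI muscles, and 11.63, 12.21 and 12.76 in EX muscles, against 11.53, 12.10 and 12.44 in HFD muscles. Within each diet the ranges overlapped. Fibroblast scores averaged -0.03 in KDI_EX, 0.17 in KDI, 0.15 in EX and -0.004 in HFD muscles, so that they too were lower with the wheel on the ketogenic diet and higher with it on the high-fat diet; their part was not tested. Without DR replicate 1 and KDI_EX replicate 6, the muscle libraries farthest from the rest in a principal component analysis, the Col6a2 value was -0.73 (adjusted p = 0.567). KDI_EX against HFD muscle had 23 of 40 genes higher, with a median of 0.01, and 2 members, Col27a1 at -0.20 ± 0.09 (adjusted p = 0.699) and Col18a1 at -0.35 ± 0.17 (0.743), at an unadjusted p under 0.05 (background 6.67%, of lower genes 2.91%, called 0.108%). Col7a1 differed by 0.35, Col8a1 by 0.31, Col6a5 by -0.40 and Col17a1 by -0.62 there. Without KDI_EX replicate 6 Col7a1 was 0.57 and Col27a1 was -0.12, and with DR replicate 1 left out as well Col8a1 was 0.087. Col8a1 was 0.54 without KDI_EX replicate 1, Col6a5 was -0.19 without HFD replicate 2 and Col17a1 was -0.20 without HFD replicate 6.

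Genes that fold, cross-link, break down, bind or regulate collagen were counted from lists of 32, 13, 9 and 12 genes. Of the 32 genes of folding, secretion and processing, all 32 were tested in nerve and 31 in muscle, and of all lists and comparisons 1 gene was called: Lox, lysyl oxidase, which cross-links fibrils. Lox had 13.41, 13.71 and 13.79 in KDI_EX nerves, against 13.85, 13.92 and 14.25 in HFD nerves, so that the ranges did not overlap. It fell by 0.36 ± 0.08 on the log2 scale (adjusted p = 0.0424, beside 0.0697% of all genes called in that comparison), while the call was lost with 1 library left out in 26 of 47 cases, with adjusted p up to 0.212, and when only these 2 groups were fitted (0.934). In KD against standard-diet muscle 12 of 31 genes of this list had an unadjusted p under 0.05, against 10.2% of all genes; the largest was Pcolce, an enhancer of procollagen cleavage, at 0.49 ± 0.19 (adjusted p = 0.4).

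Of the breakdown list 11 of 13 genes were tested, and Mrc2, the receptor that takes up collagen fragments, had the largest difference in nerve. Mrc2 had 10.87, 11.40 and 12.15 in HFD nerves, against 10.40, 10.63 and 11.01 in standard-diet nerves, a difference of 0.80 ± 0.20 (adjusted p = 0.141). Against HFD nerve it differed by -0.73 ± 0.20 in KD (0.206), -0.70 in KDI and -0.66 in KDI_EX. Its mean was 10.85 ± 0.29 in DR nerves and 11.37 ± 0.49 in EX nerves, against 11.5 ± 0.48 in HFD nerves (SD), so that EX lay closest to HFD. In muscle Mrc2 was higher by 0.50 ± 0.16 in HFD against standard diet (0.288) and differed by -0.52 ± 0.16 in DR against HFD (0.604). In HFD against standard-diet nerve Mrc2 was called under quality weights (0.86, adjusted p = 0.00363), beside 22% of all genes. With marker scores as covariates it was called too (0.81, 0.0133), beside 1.61% of all genes. Of 8 receptor genes and 12 regulators tested, none was called; the largest values in HFD against standard-diet nerve were 0.45 ± 0.19 for Itga1, the integrin chain that binds basement membrane collagen (0.213), and 0.30 ± 0.11 for Tgfb3, a growth factor that raises collagen transcription (0.179).

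Tissue identity was checked on a defining marker in muscle, where the muscle actin Acta1 lay between 19.06 and 19.76. Acta1 also ranged from 7.66 to 14.27 in nerve, so that nerve libraries held muscle RNA to different degrees. No 2 libraries were identical, the highest correlation between libraries being 0.999 in each tissue. The values carry no counts, so that the depth behind them is unknown.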

How the data were processed

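RNA was extracted with TRIzol and sequenced as read pairs, per the labels' protocols. The submitters' processing notes name cutadapt 2.3, STAR 2.7.8a, RSEM 1.3.3, DESeq2, FastQC 0.11.8, MultiQC 1.7 and the build GRCm38. The authors deposited 1 table of log2 values per library, without counts; the transform behind the log2 values and whether counting used strand are not given in the sources used here, so that overlapping starts such as Col4a1 and Col4a2 could share reads.

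Each tissue was fitted alone with limma 3.58.1 (R 4.3.3; trend and robust), all 7 groups together, on genes at or above log2 of 10 in at least 6 libraries, with Benjamini-Hochberg adjustment over all genes tested. The script was tested on simulated data. The collagen genes, lists and comparisons were chosen with earlier results of these data known. Named genes were those past the threshold, the 2 members with the highest and the 2 with the lowest difference in each comparison, and the main chains of types I, III, IV, V, VI, XV and XVIII; other members were named after their values were seen. Gene coordinates are GENCODE's on GRCm38. Differences are the first-named group minus the second. Marker scores are means of log2 deviations. Alternatives were no filter, quantile normalisation, library quality weights, only the groups compared, marker scores as covariates, leaving out 2 libraries that stood apart, and leaving out each library. The covariates were muscle fibre and adipocyte scores in nerve, and adipocyte and tendon scores in muscle.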

Additional observations from a re-analysis of the deposited data

Results flagged for a closer look

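Among the collagen genes plotted or described by group (20 gene and tissue pairs, 140 groups), 13 groups had a library far from the rest of its group by Dixon's test, where chance gives about 1 in 20 groups. In nerve these were Col6a5 in DR replicate 2, the lowest at 9.09, Col5a2 in KDI replicate 1, the lowest at 12.30, Col16a1 in DR replicate 2, the lowest at 11.17, and in KDI replicate 1, the lowest at 10.87, Col8a2 in HFD replicate 2, the highest at 10.84, and standard-diet replicate 5, the highest of its group for Col5a2 at 13.40 and for Col1a1 at 15.52. In muscle EX replicate 6 was the lowest of its group for Col1a1 at 11.85 and for Col12a1 at 7.72. Col17a1 had a library above the rest in 4 muscle groups: KD replicate 7 at 5.03, DR replicate 4 at 5.50, KDI replicate 5 at 5.91 and standard-diet replicate 8 at 5.20. Dixon's test did not flag HFD muscle for Col17a1, although replicate 6 lay highest at 7.13, with replicate 7 next at 5.44. No gene's difference between the wheel's effects on the 2 diets passed the threshold.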

How the results depend on the processing

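The depth behind the values is unknown, the transform is not given, and groups of 6 to 8 libraries set the precision. No paired analysis was possible because no label links a library to a mouse or gives a replicate number. Of 1078 alternatives for the counts of called collagen genes, 1066 gave the same count. The others were the following: under library quality weights nerve gave 14 in HFD against standard diet, 6 in EX against HFD and 13 in the F test, and muscle gave 1 each in KD against standard diet, KD against HFD and KDI against HFD and 11 in the F test. With marker scores as covariates nerve gave 2 in HFD against standard diet and 1 in the F test. Leaving out 1 library gave 0 to 5 in HFD against standard-diet nerve (5 without HFD replicate 5) and 0 to 2 in the nerve F test (2 without standard-diet replicate 5, 1 without EX replicate 6).

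Leaving out 1 library gave muscle Col17a1 -0.025 to 0.555 in HFD against standard diet, -0.58 to 0.114 in KDI against HFD and -0.15 to 0.544 for the wheel by diet, where the changed sign came without HFD replicate 6, and Col28a1 -0.308 to 0.018 in KD against standard diet, with the changed sign without standard-diet replicate 6. Signs in muscle also turned for Col18a1 in KD against HFD with covariates (0.037), Col6a5 in EX against HFD under quality weights (0.05) and in KDI_EX against HFD with covariates (0.002). The Col5a1 over Col5a2 ratio turned to -0.431 in nerve and -0.358 in muscle with the coding length. The Lox call was lost without the filter (adjusted p = 0.0541), under quality weights (0.0578) and without the 2 libraries that stood apart (0.0703), and kept under quantile normalisation. The causes were not tested.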

Other observations

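Counting over groups rather than comparisons, EX nerves had the highest mean of the 7 groups for 16 of 39 collagen genes and HFD nerves for 9, while KDI nerves had the lowest mean for 11 and DR nerves for 10. In muscle KDI had the highest mean for 13 of 40 genes and EX for 11, and the standard diet had the lowest for 11. No such count over all genes stands beside these. Partner chains varied together, so that the genes counted are not separate observations. Collagen genes varied more between libraries of a group than most genes did: the median within-group SD was 0.231 in nerve, against 0.141 over all genes, and 0.318 in muscle, against 0.174. The median share of a collagen gene's variance that lay between groups was 19.1% in nerve, against 15.1% over all genes, and 16.5% in muscle, against 12.0%. These are descriptions with no test.

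Chains of 1 type did not keep 1 place between the tissues. For type IX, Col9a2 ranked 21 in nerve and 35 in muscle, Col9a3 was kept in nerve only, and Col9a1 reached the limit in 0 of 47 nerve libraries but in 49 of 49 muscle libraries, at rank 29. Col2a1 ranked 29 in nerve and 40 in muscle, Col11a2 ranked 32 and 21, and Col26a1 ranked 26 and 39.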
